A study of Mus musculus with 9 samples.

Results

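The complement genes of mouse calvarial pre-osteoblasts were followed here in cells made to express either HIF isoform. The 9 genes were chosen by symbol, with earlier results of these data known, so counts of changed genes among them only describe this list. They are C3 (the central component), C4b, C1s1 and C1ra (classical pathway), Cfb (alternative pathway), Serping1 and Cd55 (inhibitors), and C5ar1 and C3ar1 (receptors). All 9 were found among the 40213 gene symbols of the count files, and all 9 passed the filter on low counts, as did 14413 symbols in all.

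Primary calvarial pre-osteoblasts, the bone-forming precursors of the skull, were taken from 3-day-old pups of wild-type ICR mice. All 3 groups were kept in osteogenic medium under normoxia, with L-AA at 50 μg/ml and β-Gp at 5 mM, and were infected with adenovirus on day 3. Ad-C was the control virus, Ad-Hif1a carried Hif1a and Ad-Hif2a carried Hif2a, the gene listed as Epas1. RNA was collected on day 6 and sequenced in 3 libraries per group. The virus dose used for sequencing is not given in the sources used here, and nothing says whether libraries of 1 group came from separate cultures or animals, so p-values measure only the spread between these libraries.

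Complement is a cascade of plasma proteins that is also made locally by stromal cells and macrophages. C1q, with the proteases C1r and C1s, starts the classical pathway by cutting C4 and C2, factor B amplifies through the alternative pathway, and both routes meet at C3. Cleaved C3 and C5 release small peptides that act on the receptors C3aR and C5aR1, while C1 inhibitor and CD55 hold the cascade in check. In bone, C3 and C5 fragments have been studied as signals between osteoblasts and osteoclasts.

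The 9 libraries held 14372589 to 18623403 counts. The targeted genes followed the labels: Hif1a averaged 190 CPM (counts scaled to a common library size by TMM) with Ad-C and 1831 CPM with Ad-Hif1a, and Epas1 45.9 CPM with Ad-C and 1666 CPM with Ad-Hif2a. Epas1 also averaged 524 CPM with Ad-Hif1a, and Hif1a 536 CPM with Ad-Hif2a, so each vector group carried raised levels of both. The 10 osteoblast markers differed widely in level, from 1.83 CPM to 40530 CPM (Col1a1) with Ad-C. None of them rose, while 3 and 5 fell with Ad-Hif1a and Ad-Hif2a, beside 5.22 and 7.72% fallen of all genes. Ad-Hif1a replicate 1 and Ad-Hif2a replicate 3 stood apart from the other vector libraries, with 2.84 and 2.71% mitochondrial counts against 3.56 to 5.58%. Each also had the lowest targeted gene of its group. Hif1a was at 1240, 1930 and 2325 CPM in Ad-Hif1a replicates 1, 2 and 3, and Epas1 at 1996, 2181 and 823 CPM in those of Ad-Hif2a. Without both libraries that stood apart, 7 of the 9 genes rose and 2 fell in each comparison with Ad-C, beside 14.2% risen and 13.4% fallen of all genes with Ad-Hif1a and 14.4% and 14.3% with Ad-Hif2a. Of 10 neutrophil markers, 3 passed the filter, with few counts in Ad-C: over its 3 libraries S100a8 had 1, Camp 4 and Mmp8 37. S100a9, Ngp and Retnlg had no count in any library. The list summed to 0.552 to 1.12 CPM in Ad-C libraries, 26.9 to 29.1 in Ad-Hif1a libraries and 39.2 to 54.0 in Ad-Hif2a libraries, and its part in the results was not tested.

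Compared with Ad-C, components and inhibitors were higher with either vector and both receptors were lower. With Ad-Hif1a, 6 of the 9 genes rose, 2 fell and C1ra did not pass at an adjusted p under 0.05 (edgeR quasi-likelihood test, Benjamini-Hochberg over all genes tested). Across all genes tested, 6.04% rose and 5.22% fell. With Ad-Hif2a, 7 rose and 2 fell, beside 7.87% risen and 7.72% fallen of all genes. In each comparison the 3 vector libraries lay above the 3 Ad-C libraries for 7 genes and below them for 2. Over all genes, such a separation was seen upward for 24.5% and downward for 25.9% with Ad-Hif1a, and for 24.0% and 25.5% with Ad-Hif2a. The median log2 fold change of the 9 genes was 1.28 with Ad-Hif1a and 1.63 with Ad-Hif2a, against 0.0073 and 0.013 over all genes. The Ad-C libraries are shared by the 2 comparisons.

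**Figure D1:**
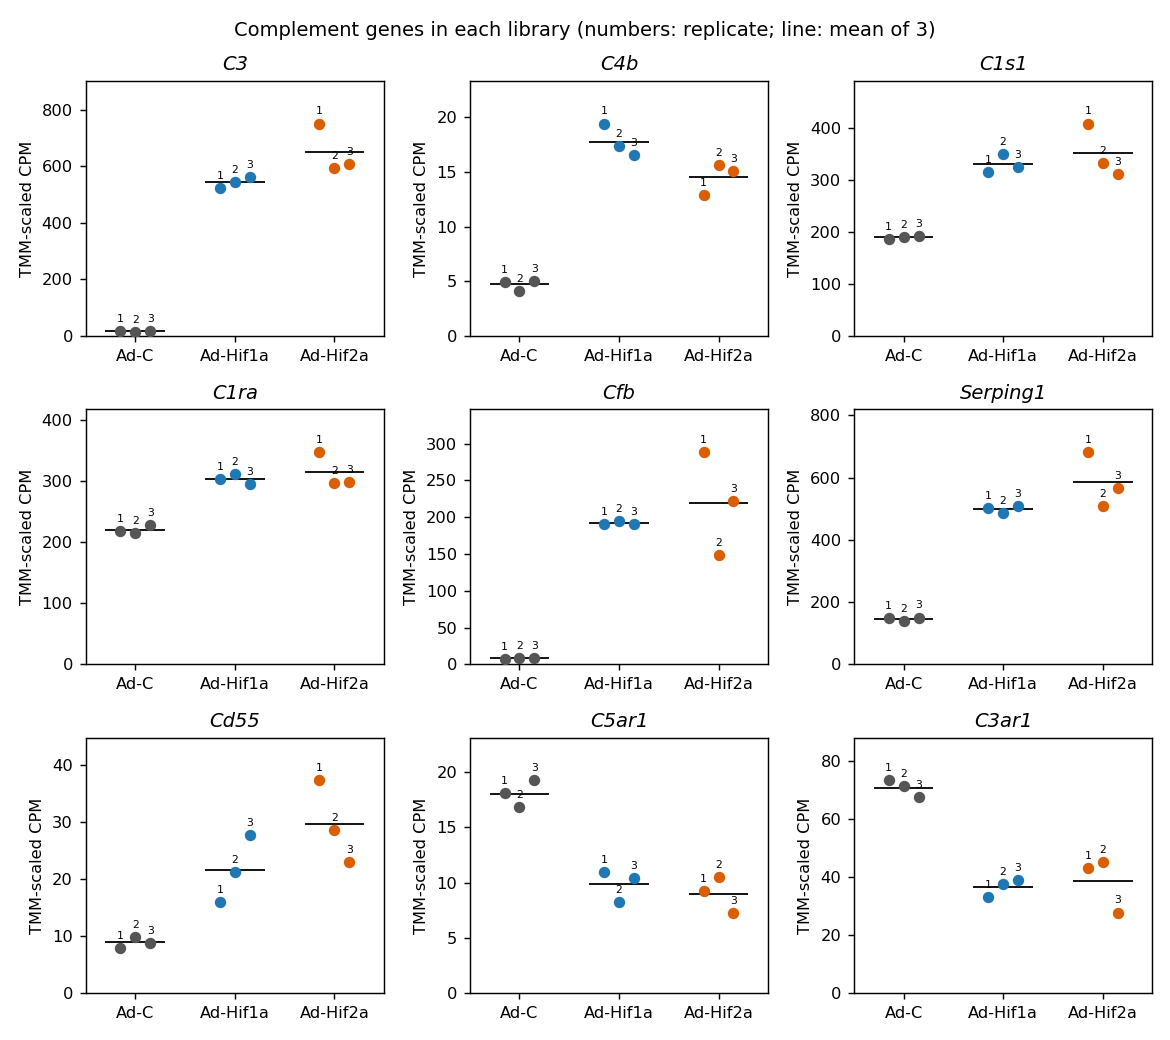
TMM-scaled CPM (vertical axes, each from 0) of the 9 complement genes in the 9 libraries, 1 point per library with its replicate number, and a line at the mean of 3. Vector libraries lie above Ad-C for 7 genes and below it for C5ar1 and C3ar1.

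**Figure D2:**
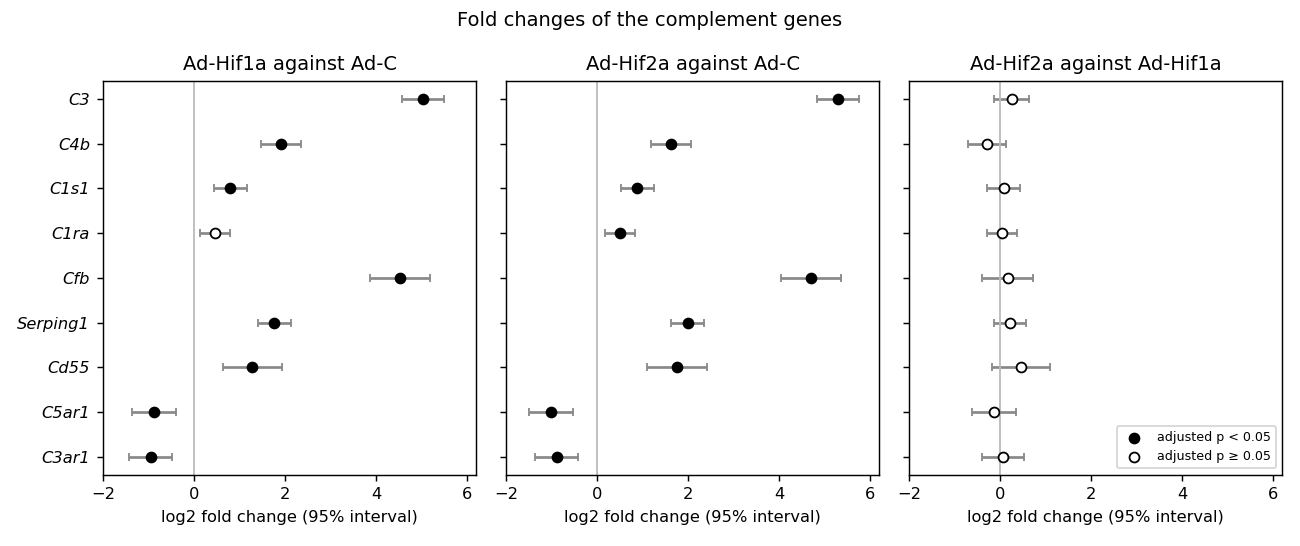
Log2 fold changes of the 9 genes (horizontal axes) with 95% intervals from the edgeR fit in the 3 comparisons, filled where the adjusted p is under 0.05. C3 and Cfb lie farthest to the right against Ad-C, and no gene is filled between the vectors.

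C3, whose cleavage is the common step of all complement pathways, had the largest change of the 9 genes with either vector. It stood at 16.4, 14.2 and 19.2 CPM in the Ad-C libraries, at 521, 545 and 561 CPM with Ad-Hif1a, and at 751, 594 and 608 CPM with Ad-Hif2a. The 3 groups did not overlap, and Ad-Hif2a replicate 1 was the highest library. Log2 fold changes are given ± SE. Mean C3 was 32.7-fold higher with Ad-Hif1a (log2 fold change 5.04 ± 0.20, adjusted p = 6.3e-05, edgeR). With Ad-Hif2a it was 39.2-fold higher (log2 fold change 5.30 ± 0.20, adjusted p = 3.8e-05). C3 passed in all 18 alternatives of each comparison, with log2 fold changes of 4.95 to 5.16 and 5.16 to 5.41.

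The 250 bases upstream of the start of C3 (RefSeq, build GRCm38.p6, chr17:57228137-57228386, minus strand) are shown with those of 3 other genes, 1 inhibitor and both receptors, because C3 and Cd55 rose where the receptors fell. The windows are those of Cd55 (chr1:130462745-130462994), C5ar1 (chr7:16259339-16259588) and C3ar1 (chr6:122856158-122856407), all on the minus strand. They are written 5′ to 3′ toward the start, and capitals mark matches to the motifs searched.
C3: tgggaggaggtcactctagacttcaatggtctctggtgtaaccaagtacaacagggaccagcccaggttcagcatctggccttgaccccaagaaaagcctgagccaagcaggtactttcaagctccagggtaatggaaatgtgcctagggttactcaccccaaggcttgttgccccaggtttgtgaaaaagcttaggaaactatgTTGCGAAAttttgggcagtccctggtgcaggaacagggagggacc
Cd55: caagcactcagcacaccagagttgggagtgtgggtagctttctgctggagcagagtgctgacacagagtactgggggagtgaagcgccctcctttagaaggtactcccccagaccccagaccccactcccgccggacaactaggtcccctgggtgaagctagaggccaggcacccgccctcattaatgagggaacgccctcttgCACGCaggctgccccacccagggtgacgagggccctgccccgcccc
C5ar1: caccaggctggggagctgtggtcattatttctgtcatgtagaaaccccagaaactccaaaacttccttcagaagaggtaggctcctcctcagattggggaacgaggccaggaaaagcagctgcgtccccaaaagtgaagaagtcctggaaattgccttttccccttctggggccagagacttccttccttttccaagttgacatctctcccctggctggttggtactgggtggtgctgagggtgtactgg
C3ar1: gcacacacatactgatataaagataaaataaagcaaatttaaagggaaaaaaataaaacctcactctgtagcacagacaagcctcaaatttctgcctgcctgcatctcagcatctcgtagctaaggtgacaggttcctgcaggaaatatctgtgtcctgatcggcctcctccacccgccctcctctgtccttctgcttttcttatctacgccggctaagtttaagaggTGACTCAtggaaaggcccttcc
RefSeq gave such windows for 6 of the 9 genes, with 7 windows in all. The hypoxia response core ACGTG, present on either strand in 16.6% of 32851 windows, was in none of them. The variant core GCGTG, in 28.2% of windows, was found on the opposite strand of Cd55, 46 to 42 bases before the start. The C/EBP letters TTGCNNAA, in 9.56% of windows, were found in C3 (45 to 38 bases before the start) and in C1s1. The AP-1 letters TGANTCA, in 6.75% of windows, were found in C3ar1, 22 to 16 bases before the start. The STAT letters TTCNNNGAA (7.02% of windows) and the kappaB consensus (3.90%) were in none of the 7 windows. C5ar1 thus carried none of the motifs in this window. A match describes the letters only, and the motifs were not tested against the counts.

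Cfb encodes factor B, the protease of the alternative pathway C3 convertase, and its change was second only to that of C3 among the 9 genes. Its level was 7.40, 9.36 and 8.18 CPM with Ad-C, 191, 195 and 191 CPM with Ad-Hif1a, and 289, 149 and 222 CPM with Ad-Hif2a. The Ad-Hif1a libraries were nearly equal and lay inside the wide range of the Ad-Hif2a libraries, whose coefficient of variation was 31.8% against 1.29%. The mean was 23.2-fold higher than in Ad-C with Ad-Hif1a (log2 fold change 4.53 ± 0.28, adjusted p = 0.00027) and 26.5-fold higher with Ad-Hif2a (4.70 ± 0.28, adjusted p = 0.00018). Cfb passed in all 18 alternatives of both comparisons. In the GENCODE M21 transcripts, 76.3% of the 31-base words of Cfb also occur in Gm20547, a model that is not among the symbols of the files. Cfb lies beside C2 on chromosome 17.

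Of the 3 classical pathway genes, 2 rose with Ad-Hif1a and 3 with Ad-Hif2a, each with a smaller fold change than C3 or Cfb. C4b, the thioester protein cut by C1s, was at 4.97, 4.15 and 5.03 CPM with Ad-C, 19.4, 17.3 and 16.6 CPM with Ad-Hif1a, and 12.9, 15.7 and 15.1 CPM with Ad-Hif2a. Every Ad-Hif1a library was above every Ad-Hif2a library, the reverse of the order for C3. Mean C4b was 3.77-fold (log2 fold change 1.92 ± 0.19, adjusted p = 0.0011) and 3.09-fold (1.63 ± 0.19, adjusted p = 0.0018) its Ad-C level, and it passed in all 18 alternatives of both. C4b shares 48.8% of its 31-base words with C4a, so reads could be exchanged in counting. C4a itself averaged 0.642 CPM with Ad-C, 1.03 with Ad-Hif1a and 1.09 with Ad-Hif2a and did not pass.

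C1s1 and C1ra, the paired proteases of the C1 complex, lie side by side on chromosome 6 and were among the most alike in pattern. C1s1 stood at 186, 189 and 192 CPM with Ad-C, at 315, 349 and 324 CPM with Ad-Hif1a, and at 408, 333 and 312 CPM with Ad-Hif2a. Its log2 fold change was 0.80 ± 0.16 with Ad-Hif1a (adjusted p = 0.019) and 0.89 ± 0.16 with Ad-Hif2a (adjusted p = 0.010). C1s1 was close to even across the Ad-C libraries and its vector groups overlapped each other. The calls rested on single libraries: with Ad-Hif1a the adjusted p was 0.16, 0.11 and 0.10 without Ad-C replicates 1, 2 and 3, and 0.051 and 0.15 without Ad-Hif1a replicates 1 and 2. With Ad-Hif2a it was 0.10, 0.063 and 0.064 without those Ad-C replicates and 0.054 without Ad-Hif2a replicate 1. Calls over all genes without those Ad-C replicates were 441, 635 and 487 with Ad-Hif1a, against 1624 with all 9 libraries. With Ad-Hif2a such calls were 688, 1014 and 769, against 2247.

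C1ra stood at 218, 215 and 228 CPM with Ad-C, at 303, 311 and 294 CPM with Ad-Hif1a, and at 347, 296 and 299 CPM with Ad-Hif2a. The log2 fold change was 0.46 ± 0.14 with Ad-Hif1a (adjusted p = 0.084, not past the threshold) and 0.51 ± 0.14 with Ad-Hif2a (adjusted p = 0.049). All vector libraries were above all Ad-C libraries, but both values lay close to the threshold. With Ad-Hif1a it passed in 5 of 18 alternatives. The adjusted p was 0.0256 with no replicate block, 0.0126 with only the 6 libraries compared, 0.0266 in DESeq2, 0.0065 without both libraries that stand apart and 0.0086 without Ad-Hif2a replicate 3, which shares the estimate of spread. With Ad-Hif2a it was above the threshold in 11 of 18 alternatives, at 0.28, 0.17 and 0.18 without Ad-C replicates 1, 2 and 3, 0.080 and 0.12 without Ad-Hif1a replicates 1 and 2, and 0.16 and 0.082 without Ad-Hif2a replicates 1 and 2. The other 4 were upper-quartile factors (0.055), no composition factors (0.068), no filter (0.12) and only the 6 libraries compared (0.12). The difference between the vectors in C1ra was 0.051 on the log2 scale (95% interval -0.28 to 0.38), so C1ra was not shown to respond to only 1 of them.

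The ratio of C1s1 to C1ra counts within a library, which no scaling between libraries touches, was 0.843 to 0.882 in Ad-C libraries, 1.04 to 1.12 in Ad-Hif1a libraries and 1.04 to 1.18 in Ad-Hif2a libraries. Each vector group lay above Ad-C, so C1s1 counts were higher relative to C1ra. C1ra shares 56.9% of its 31-base words with C1rb, and C1s1 shares 35.0% with C1s2, so their values may include reads of these copies. C1rb averaged 4.10, 8.14 and 9.01 CPM, and C1s2 14.0, 22.1 and 21.9 CPM, in Ad-C, Ad-Hif1a and Ad-Hif2a.

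Both inhibitors rose with either vector. Serping1 encodes C1 inhibitor, the serpin that inactivates C1r and C1s. Its level was 148, 141 and 151 CPM with Ad-C, 503, 485 and 508 CPM with Ad-Hif1a, and 682, 508 and 565 CPM with Ad-Hif2a. The Ad-Hif2a libraries reached from just above the highest Ad-Hif1a library upward. Mean Serping1 was 3.40-fold its Ad-C level with Ad-Hif1a (log2 fold change 1.77 ± 0.15, adjusted p = 0.00072) and 3.99-fold with Ad-Hif2a (1.99 ± 0.15, adjusted p = 0.00039). It passed in all 18 alternatives of both comparisons and shares none of its 31-base words with another gene. The ratio of Serping1 to C1s1 counts was 0.744 to 0.795 in Ad-C libraries, 1.39 to 1.60 in Ad-Hif1a libraries and 1.53 to 1.81 in Ad-Hif2a libraries, so counts of the inhibitor were higher relative to those of its target protease.

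Cd55 encodes decay-accelerating factor, a membrane-anchored protein that breaks up C3 convertases. It stood at 7.95, 9.76 and 8.82 CPM with Ad-C, at 16.0, 21.2 and 27.6 CPM with Ad-Hif1a, and at 37.2, 28.6 and 22.9 CPM with Ad-Hif2a. The vector libraries were spread widely, with coefficients of variation of 26.9% and 24.4%, and overlapped each other. The log2 fold change was 1.28 ± 0.28 with Ad-Hif1a (adjusted p = 0.028) and 1.75 ± 0.28 with Ad-Hif2a (adjusted p = 0.0073). With Ad-Hif1a the adjusted p was 0.16, 0.096 and 0.16 without Ad-C replicates 1, 2 and 3, 0.12 without Ad-Hif1a replicate 2 and 0.051 when Ad-Hif2a replicate 2 was left out. With Ad-Hif2a it was 0.067 and 0.056 without Ad-C replicates 1 and 3. Cd55 shares 12.9% of its 31-base words with Cd55b, which had no count with Ad-C and at most 3 counts in a vector library. The antisense gene Cd55os overlaps Cd55 and had at most 1 count in a library.

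Both receptors of complement peptides among the 9 genes fell. C5ar1, the C5a receptor of myeloid cells, stood at 18.1, 16.8 and 19.3 CPM with Ad-C, at 11.0, 8.20 and 10.4 CPM with Ad-Hif1a, and at 9.20, 10.5 and 7.21 CPM with Ad-Hif2a. Its vector libraries lay below Ad-C and overlapped each other. Mean C5ar1 was 1.83-fold lower with Ad-Hif1a (log2 fold change -0.88 ± 0.21, adjusted p = 0.037) and 2.02-fold lower with Ad-Hif2a (-1.01 ± 0.21, adjusted p = 0.019). With Ad-Hif1a its adjusted p was 0.17, 0.12 and 0.21 without Ad-C replicates 1, 2 and 3, 0.11 and 0.23 without Ad-Hif1a replicates 1 and 2, and 0.066 without Ad-Hif2a replicate 1. With Ad-Hif2a it was 0.098, 0.073 and 0.11 without the Ad-C replicates and 0.082 without Ad-Hif2a replicate 1.

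C3ar1, the C3a receptor, stood at 73.3, 71.6 and 67.7 CPM with Ad-C, at 33.0, 37.5 and 39.0 CPM with Ad-Hif1a, and at 43.1, 45.3 and 27.8 CPM with Ad-Hif2a. Again no vector library reached an Ad-C library, and the Ad-Hif1a range lay within the Ad-Hif2a range. Mean C3ar1 was 1.94-fold lower with Ad-Hif1a (log2 fold change -0.95 ± 0.20, adjusted p = 0.024) and 1.83-fold lower with Ad-Hif2a (-0.89 ± 0.20, adjusted p = 0.025). With Ad-Hif1a the adjusted p was 0.14, 0.086 and 0.15 without Ad-C replicates 1, 2 and 3, and 0.11 and 0.16 without Ad-Hif1a replicates 1 and 2. With Ad-Hif2a it was 0.15, 0.080 and 0.13 without the Ad-C replicates, 0.061 without Ad-Hif1a replicate 2 and 0.064 when Ad-Hif2a replicate 1 was left out. Counts of C3, the source of the ligand, were 0.199 to 0.284 times those of C3ar1 with Ad-C, 14.4 to 15.8 times with Ad-Hif1a and 13.1 to 21.9 times with Ad-Hif2a.

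Macrophage markers moved with the receptors. Of 14, 9 fell and 0 rose with Ad-Hif1a, and 8 fell and 0 rose with Ad-Hif2a. The shares of all genes were 5.22% fallen and 6.04% risen, and 7.72% and 7.87%. Their summed level was 3406 to 3635 CPM in Ad-C libraries, 1451 to 1626 in Ad-Hif1a libraries and 1513 to 1795 in Ad-Hif2a libraries. In a bulk sample, fewer cells of a type and less RNA per cell cannot be told apart. The markers did not move as a block: Lyz2, the lysozyme gene, averaged 46.5% and 48.2% of its Ad-C mean with Ad-Hif1a and Ad-Hif2a, and Laptm5, a leukocyte lysosomal protein, 39.8% and 39.5%. Adgre1, which encodes the macrophage marker F4/80, averaged 86.6% and 98.9%. No marker was at 0, and the others ranged from 7.66 to 127% of Ad-C with Ad-Hif1a and from 4.75 to 181% with Ad-Hif2a. C5ar1 averaged 54.6% and 49.6%, and C3ar1 51.5% and 54.6%, within the span of the markers. The part of the marker change in the fall of the receptors was not tested.

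**Figure D3:**
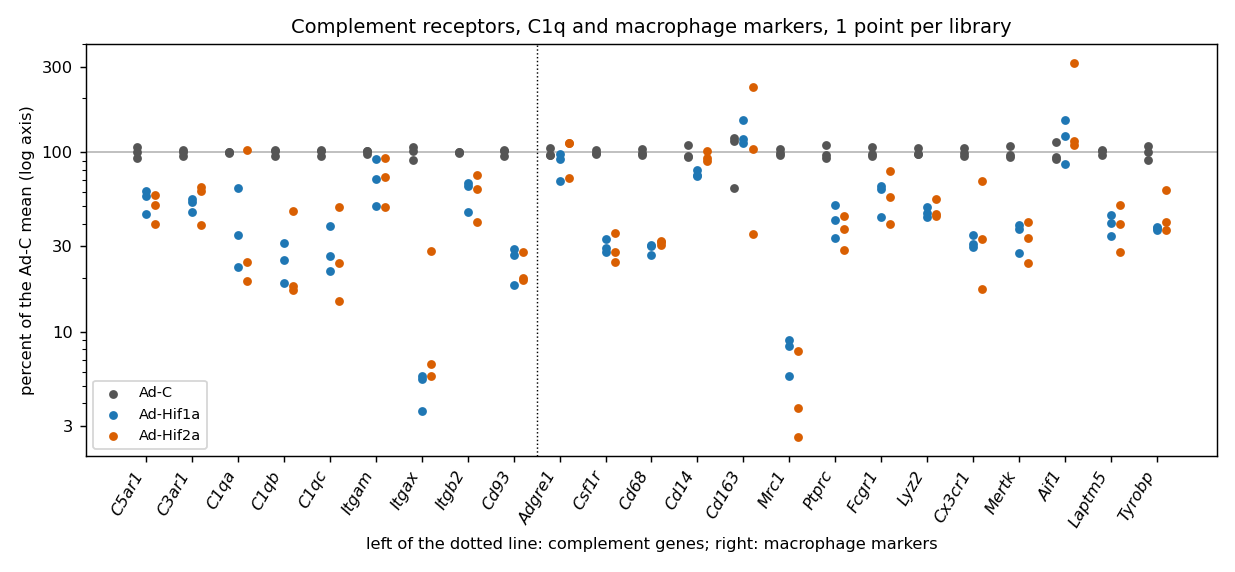
Level as a percent of the Ad-C mean (vertical log axis) for complement receptors and C1q genes (left of the dotted line) and 14 macrophage markers (right), 1 point per library. C5ar1 and C3ar1 lie between 39.2 and 63.9% in the vector libraries, Mrc1 below 10% and Adgre1 between 69.1 and 113%.

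The vectors were then compared with each other, to ask whether the isoforms differed in their effect on these genes. None of the 9 genes passed in edgeR, where every adjusted p was 1, and none had an unadjusted p under 0.05 or passed in DESeq2. Across the 14413 genes tested in edgeR, 0% rose and 0% fell and 338 had an unadjusted p under 0.05. DESeq2, which gave values for 24731 genes, called 80. For C3 the log2 difference of Ad-Hif2a from Ad-Hif1a was 0.26 (95% interval -0.13 to 0.65), and for Cfb 0.17 (-0.39 to 0.73). For Serping1 it was 0.22 (-0.12 to 0.57), for Cd55 0.47 (-0.17 to 1.11) and for C4b -0.29 (-0.70 to 0.13). These intervals leave room for differences of either sign. They were 0.086 (-0.28 to 0.45) for C1s1, -0.13 (-0.62 to 0.36) for C5ar1 and 0.064 (-0.40 to 0.53) for C3ar1. The vector libraries did not overlap for C3 and Serping1, which were higher with Ad-Hif2a, and for C4b, which was lower. Over all genes this held for 3.07% upward and 3.21% downward. A p that misses the threshold does not show that the isoforms act alike.

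The rest of the complement system was measured with a list of 48 further genes, of which 28 passed the filter and 5 had no count in any library. With Ad-Hif1a, 3 rose, 4 fell and 21 did not pass, and with Ad-Hif2a 5 rose, 4 fell and 19 did not pass. The shares of all genes were 6.04% risen and 5.22% fallen, and 7.87% and 7.72%. Leaving out C6, Cpn2 and Itgax, which had fewer than 3 libraries over the filter's level of 0.573 CPM in the group where they are low, 2 rose and 3 fell with Ad-Hif1a, and 3 rose and 3 fell with Ad-Hif2a. The median log2 fold change was -0.17 and -0.37, on the other side of 0 from that of the 9 genes. Between the vectors, none of the 28 passed in edgeR. These counts moved when 1 library was left out, as did the shares of all genes, given in brackets. With Ad-Hif1a the risen genes were 1 without Ad-C replicate 1 or 3 or Ad-Hif1a replicate 1 or 2 (all genes: 2.06, 2.2, 3.21 and 2.24%), but 6 without Ad-Hif2a replicate 3 (18.1%). The fallen genes were 2 without Ad-C replicate 1, 2 or 3 or Ad-Hif1a replicate 2 (0.937, 1.64, 1.12 and 0.922%), but 10 without Ad-Hif2a replicate 3 (18.3%). With Ad-Hif2a the risen genes were 2 without Ad-C replicate 1 or 3, Ad-Hif1a replicate 2 or Ad-Hif2a replicate 1 (2.89, 3.18, 5.17 and 4.33%). They were 3 without Ad-C replicate 2, Ad-Hif1a replicate 1 or Ad-Hif2a replicate 2 (3.95, 6.82 and 6.6%). The fallen genes were 2 without Ad-C replicate 1, 2 or 3 or Ad-Hif2a replicate 1 (1.79, 2.93, 2.05 and 2.89%), but 8 with Ad-Hif2a replicate 3 left out (11.5%).

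Of 8 further classical pathway genes, all tested, C2 rose while C1qb and C1qc fell with either vector, and C1rb rose with Ad-Hif2a. C1qb was at 70.5 ± 2.80 CPM (SD, n = 3) with Ad-C, 17.6 ± 4.41 with Ad-Hif1a and 19.3 ± 11.9 with Ad-Hif2a, and fell (log2 fold changes -1.98 ± 0.41, adjusted p = 0.023, and -1.95 ± 0.41, adjusted p = 0.021). C1qc, which assembles with C1qb into C1q, fell by 1.77 ± 0.43 (adjusted p = 0.041) and 1.82 ± 0.44 (adjusted p = 0.032). C1q is made mainly by macrophages, whose markers fell in the same libraries as given above, and the part of this was not tested. C1qa, the remaining chain, was at -1.29 ± 0.64 (adjusted p = 0.25) and -1.23 ± 0.66 (adjusted p = 0.22) and did not pass. Its level was 95, 93 and 94 CPM with Ad-C, 59, 32 and 22 CPM with Ad-Hif1a, and 18, 23 and 97 CPM with Ad-Hif2a. Ad-Hif2a replicate 3 was thus at the Ad-C level, while its macrophage markers summed to 1520 CPM. C2, the protease that joins C4b in the classical C3 convertase, was at 29.5, 32.9 and 32.2 CPM with Ad-C, 47.0, 58.8 and 56.4 CPM with Ad-Hif1a, and 66.5, 50.1 and 44.5 CPM with Ad-Hif2a. It rose by 0.78 ± 0.20 (adjusted p = 0.047) and 0.76 ± 0.20 (adjusted p = 0.042) on the log2 scale. C1rb rose with Ad-Hif2a (1.14 ± 0.30, adjusted p = 0.044) and did not pass with Ad-Hif1a (0.98 ± 0.30, adjusted p = 0.086), and it shares sequence with C1ra.

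**Figure D4:**
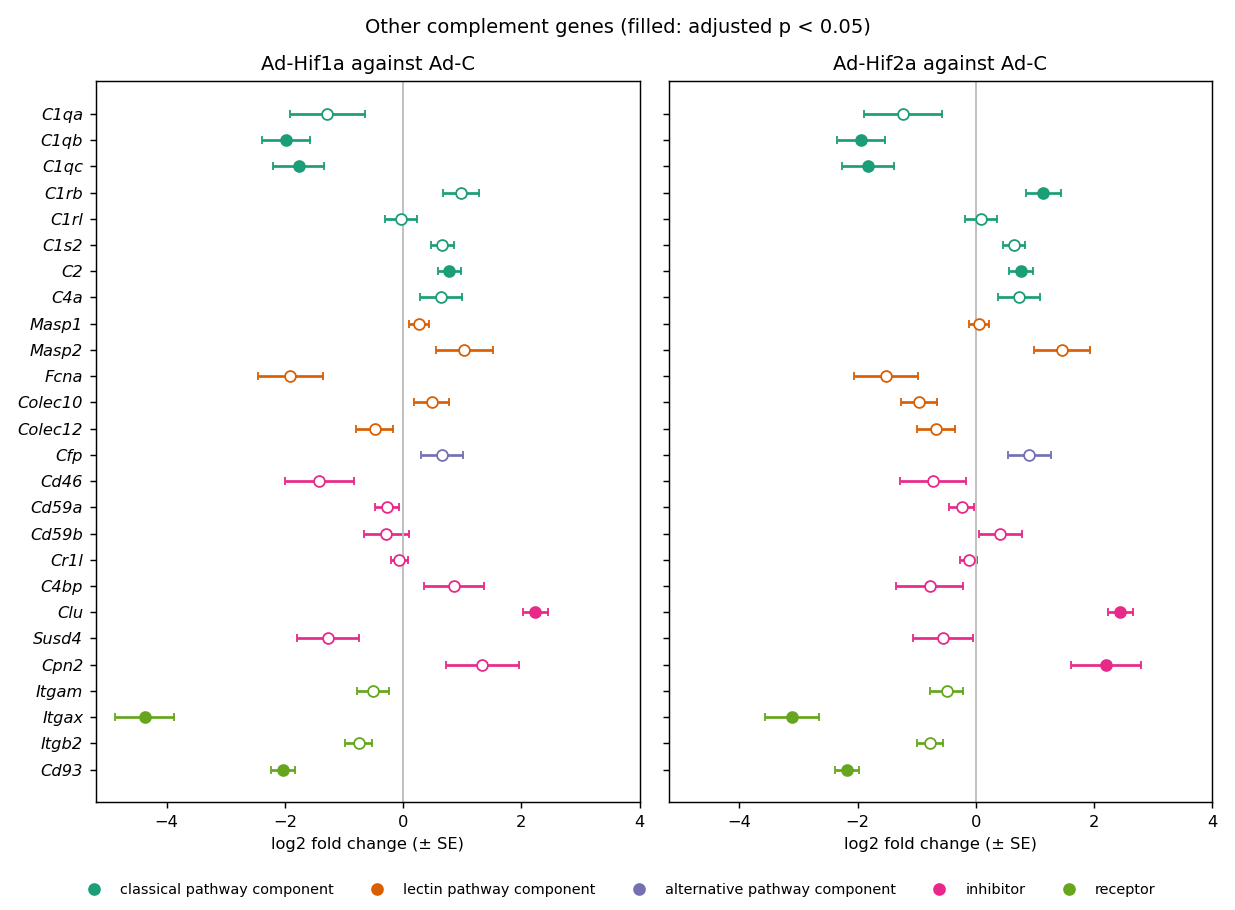
Log2 fold changes (horizontal axes, bars ± SE) of 26 further complement genes against Ad-C, colored by role and filled where the adjusted p is under 0.05. C6, with no count in Ad-C, and 1 inhibitor are left out. Clu lies on the far right in both panels, and C1qb, C1qc, Itgax and Cd93 are filled on the left.

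Lectin pathway genes did not pass. Of 5 tested among 9 listed, the ficolin Fcna was at -1.91 ± 0.55 (adjusted p = 0.072) and -1.52 ± 0.54 (adjusted p = 0.099), and the collectin Colec10 at 0.48 ± 0.29 (adjusted p = 0.34) and -0.96 ± 0.31 (adjusted p = 0.078) on the log2 scale. The protease gene Masp2 was at 1.04 ± 0.48 (adjusted p = 0.22) and 1.45 ± 0.47 (adjusted p = 0.079). It had only 20, 34 and 43 counts over the 3 libraries of Ad-C, Ad-Hif1a and Ad-Hif2a, and Fcna 143, 41 and 46. Colec12, a scavenger receptor with a collectin domain, was at -0.48 ± 0.31 (adjusted p = 0.37) and -0.67 ± 0.31 (adjusted p = 0.18). In the alternative pathway, properdin (Cfp), which stabilizes the C3 convertase, was at 0.66 ± 0.35 (adjusted p = 0.28) and 0.91 ± 0.36 (adjusted p = 0.13). Factor D (Cfd), the protease that activates factor B, had no count in any library, and it was chosen for mention after its values were seen.

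Of 7 terminal pathway genes, only C6 passed the filter, and only through the vector libraries, where it is high. C6, a component of the membrane attack complex, had no count in any Ad-C library, 17, 15 and 12 counts in the Ad-Hif1a libraries and 20, 11 and 23 counts in the Ad-Hif2a libraries. A floor of 3 counts over the Ad-C group (0.0549 CPM) makes it at least 15.7-fold higher with Ad-Hif1a and at least 20.4-fold higher with Ad-Hif2a and its place among the risen genes is no support for the list. These are low counts next to those of the 9 genes, and with C6 set to its bound the medians of the 28 genes stayed at -0.17 and -0.37.

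Among 9 further inhibitors tested, Clu and, with Ad-Hif2a, Cpn2 rose. Clu, a secreted chaperone that blocks assembly of the membrane attack complex, was at 41.0, 44.3 and 42.4 CPM with Ad-C, 237, 200 and 165 CPM with Ad-Hif1a, and 215, 198 and 285 CPM with Ad-Hif2a. Its log2 fold change was 2.24 ± 0.21 (adjusted p = 0.0012) and 2.45 ± 0.22 (adjusted p = 0.00067). Cpn2, the carrier subunit of the carboxypeptidase that inactivates C3a and C5a, had 13 counts with Ad-C over 3 libraries and 54 with Ad-Hif2a (2.20 ± 0.59, adjusted p = 0.047), and no Ad-C library reached the filter. With Ad-Hif1a Cpn2 was at 1.34 ± 0.62 (adjusted p = 0.22). Cd46, a membrane cofactor for the cleavage of C3b, was at -1.42 ± 0.58 (adjusted p = 0.18) and -0.73 ± 0.56 (adjusted p = 0.38). Cd46 had only 58, 20 and 29 counts over the 3 libraries of Ad-C, Ad-Hif1a and Ad-Hif2a. Of the 9 inhibitors, 8 did not pass with Ad-Hif1a and 7 with Ad-Hif2a. A rise like that of Serping1 and Cd55 was thus not shown for every inhibitor of the list.

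Of 7 other receptor genes, 4 could be tested, of which Cd93 and Itgax fell with either vector. Cd93, a C1q-binding surface protein of myeloid and endothelial cells, went from 76.7 ± 2.91 CPM (SD, n = 3) to 18.9 ± 4.28 with Ad-Hif1a and 17.2 ± 3.56 with Ad-Hif2a (log2 fold changes -2.04 ± 0.20, adjusted p = 0.0013, and -2.18 ± 0.20, adjusted p = 0.00086). Itgax, the α chain of complement receptor 4, averaged 4.91% and 13.5% of its Ad-C mean (adjusted p = 0.0025 and 0.0050), but it passed the filter only through the Ad-C libraries, where it is high. Itgb2, the β chain shared by the complement receptors of the integrin family, averaged 59.7% and 59.3% (adjusted p = 0.082 and 0.061), and its partner Itgam 70.8% and 71.7% (adjusted p = 0.29 and 0.24), and neither passed. All 4 are genes of macrophages and other leukocytes, and their libraries with either vector lay below Ad-C without overlap, as did 25.9% and 25.5% of all genes.

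Genes whose pattern was most like that of each complement gene were found by Pearson correlation of log2 CPM over the 9 libraries, among 14412 genes. The 9 libraries fall into control and vector libraries, so these correlations mostly reflect that step and are given as a description. C3 was most like Mmp3 (0.999), Or5m3b (0.998) and Fbln1 (0.997), and Serping1 most like Or5m3b (0.998), Odc1 (0.997) and Artn (0.997). Cfb was most like Bst1 (0.998), Odc1 (0.996) and Slco3a1 (0.996). Thus Or5m3b stood beside both C3 and Serping1, and Odc1 beside both Serping1 and Cfb. C4b was most like Uck2 (0.993), Ltbp2 (0.992) and Tspan11 (0.990), and Cd55 most like Vegfa (0.996), the angiogenic factor, Srgn (0.988) and Abcb1a (0.986). C1s1 was most like Zwint (0.996), C1qtnf7 (0.993) and C1ra (0.993), and C1ra most like Maob (0.993), C1s1 (0.993) and Stc1 (0.990), so the paired proteases were among each other's nearest genes. C5ar1 was most like Zfp710 (0.986), Tbc1d16 (0.985) and Rnf144b (0.983), and C3ar1 most like Cav1 (0.995), Timp3 (0.992) and Snx2 (0.992).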

How the data were processed

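RNA of 9 libraries, 3 per group, was made into libraries from total RNA with CORALL RNA-seq V2. The deposited files hold counts per gene symbol, whole numbers that the authors did not normalize before deposit. The submitters' processing notes name bcl2fastq 2.20.0.422, fastp, STAR, Salmon and GRCm39, and their roles and settings are not given in the sources used here, so how reads shared by near copies were divided is unknown. Groups and replicate numbers come from the labels.

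R 4.3.3, edgeR 4.0.16 and limma 3.58.1 were used. Genes passing filterByExpr were scaled by TMM and fitted by robust quasi-likelihood over all 9 libraries, with group and replicate number as terms, since the study names a paired test. In each of the 3 comparisons the Benjamini-Hochberg adjustment covered all 14413 genes, and calls were made at 0.05. SEs are the log2 fold change divided by the root of the F statistic. Adjusted p-values without a tool name come from this edgeR fit. TMM-scaled CPM served for levels, and correlations used log2 CPM with a prior count of 2. The test was tried on simulated counts. Shared sequence was counted as 31-base words of GENCODE M21 transcripts, and upstream sequence and gene order are from RefSeq (GRCm38.p6, an earlier build than that of the files). All 9 genes are named. Of the further complement genes, up to 4 a role with the lowest adjusted p were named, besides C1qa, C4a and C1s2 (kin of named genes) and Cfd. Up to 3 markers by highest CPM were named, besides Mrc1 in a caption and markers without counts. Members, lists and tests were chosen with earlier results of these data known. Alternatives were no replicate block, other scaling and filters, only the 6 libraries compared, DESeq2 1.42.0, and leaving out libraries. Protein sequences were not used here, and 1 gene of the further list is not reported here.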

Additional observations from a re-analysis of the deposited data

How the results depend on the processing

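Against Ad-C, the 9 genes kept their direction in all 18 alternatives. With Ad-Hif1a 136 of 162 values kept their side of the threshold, 21 no longer passed and 5 newly passed, and with Ad-Hif2a 136 of 162 did and 26 no longer passed. Leaving out 1 library, the risen genes among the 9 ranged from 4 to 7 with either vector and the fallen from 0 to 2. With either vector the fallen were 0 without Ad-C replicate 1, 2 or 3. They were also 0 with Ad-Hif1a without Ad-Hif1a replicate 1 or 2, and with Ad-Hif2a without Ad-Hif2a replicate 1. Over all genes the fallen share without those Ad-C replicates was 0.937, 1.64 and 1.12% with Ad-Hif1a, against 5.22% with all 9 libraries. Without Ad-Hif1a replicates 1 and 2 it was 1.82 and 0.922%. With Ad-Hif2a it was 1.79, 2.93 and 2.05% without the Ad-C replicates and 2.89% without Ad-Hif2a replicate 1, against 7.72%. Over every library left out, all-gene shares with Ad-Hif1a were 2.06 to 18.1% risen and 0.922 to 18.3% fallen. With Ad-Hif2a they were 2.89 to 11.1% and 1.79 to 11.5%. For the further complement genes the ranges were 1 to 6 risen and 2 to 10 fallen with Ad-Hif1a, and 2 to 6 risen and 2 to 8 fallen with Ad-Hif2a. Their risen genes with Ad-Hif1a (3) were 5 with DESeq2, 6 with only the 6 libraries compared and 6 without the 2 libraries that stand apart (all genes: 7.24, 17 and 14.2%). Their fallen genes (4) were 2 with at least 10 counts in every library, 9 with only the 6 libraries and 7 without those 2 libraries (all genes: 4.75, 16.5 and 13.4%). With Ad-Hif2a the risen genes (5) were 3 with at least 10 counts and 3 with only the 6 libraries (all genes: 6.75 and 6.19%). The fallen (4) were 9 without those 2 libraries (all genes: 14.3%). With at least 10 counts in every library fewer genes are tested, and for the rest the cause was not tested.

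Same-numbered libraries did not deviate together (r from -0.575 to 0.098 over 9 pairs, and 7 of 18 best matches were to the library's own number). With 3 libraries per group, these values cannot exclude that the numbers pair samples. With no replicate block, calls over all genes were 2379 with Ad-Hif1a (1624 with it) and 3452 with Ad-Hif2a (2247 with it), 7 of the 9 genes rose with either vector, C1ra passed with Ad-Hif1a (adjusted p = 0.0256, edgeR), and 5 further complement genes rose with Ad-Hif1a. Calls over all genes were also 4706 with Ad-Hif1a with only the 6 libraries, 3395 with Ad-Hif2a with DESeq2, and 4022 and 4173 without the 2 libraries that stand apart. Leaving out 1 library they ranged from 441 to 5330 and from 688 to 3309.

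Between the vectors 10 of 162 values, none past the threshold, changed sign. With Ad-Hif1a replicate 1 left out, C1s1 was at -0.0016 and C3ar1 at -0.067. With Ad-Hif2a replicate 1 left out, C1s1 was at -0.053, C1ra at -0.028, Cfb at -0.11 and C3ar1 at -0.048. C3ar1 was at -0.056 without Ad-Hif2a replicate 2, and C5ar1 at 0.048 without Ad-Hif2a replicate 3. Over all libraries left out in turn, these log2 differences spanned -0.053 to 0.16 for C1s1, -0.028 to 0.10 for C1ra, -0.11 to 0.44 for Cfb, -0.35 to 0.048 for C5ar1 and -0.067 to 0.28 for C3ar1. Without the 2 libraries that stand apart C5ar1 was at 0.19 and Cfb at -0.064. The cause was not tested. With library-total CPM, 27 of 27 group means moved by less than 1 SD.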
